A study of Mus musculus with 4 samples.

Results

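The regions described here are stretches of the mouse autosomes with little CpG methylation in control samples of male germ cells. They were found by cutting the 19 autosomes into non-overlapping windows of 10 kb, keeping windows with 20 or more CpGs measured in every sample, and taking those whose mean methylation was under 15% in both controls. The windows of the 4 Hox clusters, 33 in number, were left out. This gave 2216 windows of the 202668 autosomal windows measured, or 1.09%. Adjacent windows were joined into 2092 regions that cover 22.16 Mb: 1990 regions of 10 kb, 85 of 20 kb, 13 of 30 kb, 3 of 40 kb and 1 of 50 kb. The control values chose the members, so the control levels and the differences between genotypes in these regions are descriptions; the knockout levels were not used.

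Germ cell samples were prepared from testes of 21-day-old mice of 2 genotypes, with 2 samples each. Controls were Np95fl/fl, which carry loxP-flanked alleles of Np95 (also called Uhrf1) and are labelled without Cre. Knockouts were Np95fl/fl:Stra8-Cre, in which the Stra8 promoter, active in premeiotic male germ cells, drives Cre recombinase. The DNA came from a filtered testicular cell suspension rather than from sorted cells, so other testicular cells may be included in every level below. The number of animals behind each sample is not given in the sources used here. Methylation was read by post-bisulfite adaptor tagging (PBAT), a form of whole-genome bisulfite sequencing, and each value is the percentage of reads methylated at 1 cytosine of a CpG. Between 28999710 and 29774194 cytosines had a value in a sample, and 75.9% of the 1000184 listed cytosines in the regions had a value in all 4 samples, against 60.8% over the autosomes. Reads per cytosine are unknown, so no interval could be set on a single value. The deletion of Np95 was not checked here, since the values hold no measure of it.

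NP95 binds CpGs that are methylated on 1 strand after replication and brings the maintenance methyltransferase DNMT1 to them, so that the pattern is copied to the new strand. CpG islands, the CpG-dense stretches at many promoters, are usually unmethylated in all tissues. Longer unmethylated domains, called DNA methylation valleys or canyons, are known from other work at genes for developmental transcription factors, where Polycomb proteins often sit.

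The following promoters from these regions show the range of sequence and response that the values below describe. Each is the 300 bases from RefSeq's GRCm38.p6 (the mm10 build) that run from before to just after the annotated start of the gene, 5′ to 3′ on the gene's strand, with each CG in capitals; they were chosen after their values were seen. The Pax6, Sox2 and Olig2 promoters stand for transcription factor genes with low methylation in every sample, Sycp2 and Mest for promoters with more methylation in the knockouts, and Hpse2 for one with less.
Pax6: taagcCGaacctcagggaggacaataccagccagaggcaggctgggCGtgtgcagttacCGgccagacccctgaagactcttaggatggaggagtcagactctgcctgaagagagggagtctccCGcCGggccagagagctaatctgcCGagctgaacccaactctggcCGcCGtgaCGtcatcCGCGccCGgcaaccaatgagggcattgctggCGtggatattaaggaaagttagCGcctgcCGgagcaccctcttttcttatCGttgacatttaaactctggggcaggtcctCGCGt
Sox2: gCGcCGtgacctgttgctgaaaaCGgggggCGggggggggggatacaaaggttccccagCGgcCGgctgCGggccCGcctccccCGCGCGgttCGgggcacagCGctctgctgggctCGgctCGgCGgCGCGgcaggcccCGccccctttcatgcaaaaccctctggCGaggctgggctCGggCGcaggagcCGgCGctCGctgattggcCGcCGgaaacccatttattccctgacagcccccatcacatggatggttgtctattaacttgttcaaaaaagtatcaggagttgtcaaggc
Olig2: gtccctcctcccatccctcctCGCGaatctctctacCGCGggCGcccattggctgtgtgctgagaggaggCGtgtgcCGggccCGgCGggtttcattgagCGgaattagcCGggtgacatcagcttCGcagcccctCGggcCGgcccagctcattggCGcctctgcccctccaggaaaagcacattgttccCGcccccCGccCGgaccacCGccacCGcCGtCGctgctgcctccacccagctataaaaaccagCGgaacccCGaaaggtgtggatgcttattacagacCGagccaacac
Sycp2: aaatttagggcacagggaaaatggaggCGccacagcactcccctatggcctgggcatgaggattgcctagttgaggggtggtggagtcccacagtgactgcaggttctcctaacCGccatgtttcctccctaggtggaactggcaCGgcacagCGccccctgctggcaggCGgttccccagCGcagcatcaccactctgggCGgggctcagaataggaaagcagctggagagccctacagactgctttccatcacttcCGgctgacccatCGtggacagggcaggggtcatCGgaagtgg
Mest: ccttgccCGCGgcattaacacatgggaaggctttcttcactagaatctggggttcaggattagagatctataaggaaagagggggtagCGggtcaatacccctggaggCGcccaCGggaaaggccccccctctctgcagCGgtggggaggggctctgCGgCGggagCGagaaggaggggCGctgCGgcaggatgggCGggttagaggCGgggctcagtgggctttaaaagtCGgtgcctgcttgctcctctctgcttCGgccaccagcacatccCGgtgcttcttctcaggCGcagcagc
Hpse2: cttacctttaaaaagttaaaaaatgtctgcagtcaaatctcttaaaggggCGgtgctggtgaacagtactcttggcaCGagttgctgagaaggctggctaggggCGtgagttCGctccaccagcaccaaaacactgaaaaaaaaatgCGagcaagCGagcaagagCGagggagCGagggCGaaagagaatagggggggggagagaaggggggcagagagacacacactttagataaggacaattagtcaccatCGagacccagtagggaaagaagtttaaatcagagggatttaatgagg

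The Pax6 sequence (chr2:105668646-105668945, plus strand) holds 18 CGs, that of Sox2 (chr3:34649745-34650044, plus strand) 27, and that of Olig2 (chr16:91225300-91225599, plus strand) 25. Sycp2 (chr2:178407609-178407908, minus strand) and Hpse2 (chr19:43388306-43388605, minus strand) hold 10 each, and Mest (chr6:30737800-30738099, plus strand) holds 17. Methylation of the Pax6 promoter was 0.493% and 0.578% in controls and 0.794% and 0.345% in knockouts, over 34 cytosines. At Sox2 it was 1.76% and 1.06% in controls and 1.19% and 1.08% in knockouts. At both promoters the groups overlapped.

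The name valley fits few of these regions. In 125 of the 2092 (5.98%), at least 80% of the measured 1-kb bins (3 or more cytosines) were under 15% in both controls. Some of the 125 had few measured bins, such as 1 at Gm3239, so their width is not established. The median region had 42.9% of its measured bins that low. A CpG island, taken here as a run with 30 or more listed CpGs in 500 bp, lay in 2033 regions (97.2%), and a median of 78.5% of the measured cytosines of a region lay in its islands. The windows were also dense in CpGs, with a median of 189 measured against 57 in other autosomal windows. Most members are thus 1 or more unmethylated islands with methylated DNA around them, averaged over 10 kb by cytosine, and they are called low-methylated regions below. Among the 125 wide regions, 36 (28.8%) overlapped a transcription factor gene, against 9.42% of all 2092 regions. The 36 included those of Uncx (chr5:139540001-139560000), Foxd3, Zic1 and Zic4, Nkx6-1 and Olig2.

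**Figure D1:**
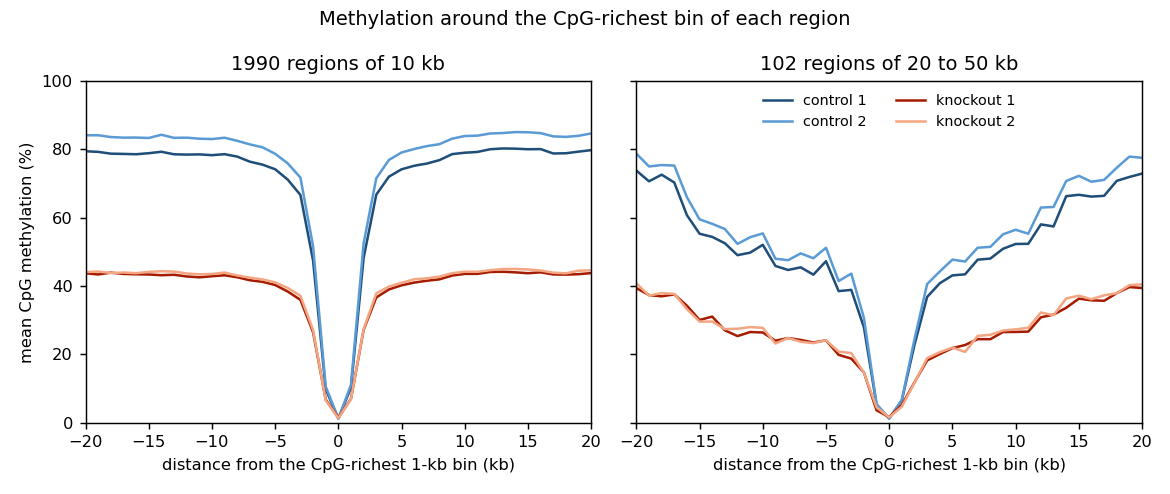
Mean CpG methylation (%) in 1-kb bins by distance (kb) from the CpG-richest bin of each region, 1 line per sample, for regions of 10 kb (left) and of 20 to 50 kb (right). All 4 lines meet near 1% at the centre, and the controls stand above the knockouts away from it.

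The profile around the CpG-richest bin shows this shape. In the 1990 regions of 10 kb, that bin was at 1.23% and 1.24% in controls and 1.43% and 1.34% in knockouts. At 2 kb to the right the controls had reached 48.3% and 52.6%, and the knockouts 27.2% and 27.4%. At 10 kb they were at 79.0% and 83.9% against 43.6% and 44.2%. Regions of 20 kb or longer climbed more slowly: 5 kb to the right, the controls were at 43.1% and 47.7%, and the knockouts at 21.8% and 22.0%. The bin on which the profiles are centred was thus near 1% in every sample, while the rim was lower in both knockouts.

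Averaged over the 2092 regions, methylation was 9.63% and 10.3% in the controls (9.95% ± 0.460, SD, n = 2) and 6.17% and 6.11% in the knockouts (6.14% ± 0.0486, SD, n = 2). The knockouts lay 3.81 points below the controls and retained 61.7% of the control level. In the other 200452 autosomal windows the controls stood at 75.9% and 80.1% and the knockouts at 41.7% and 42.1%, so that 53.7% was retained. The 2 groups did not overlap in either class, and the exact two-sided permutation test over samples returned p = 0.33, which is as low as a test of 2 samples against 2 can go. When regions were chosen on control 1 alone and the control level was read from control 2, it was 11.004% against 6.52% in the knockouts (2390 regions). Chosen on control 2 and read in control 1, it was 9.69% against 6.21% (2110 regions). Over the 125 wide regions alone the knockout mean of 4.05% and the control mean of 4.68% differed by -0.627 points. That mean covers both rises, such as 8.80 points at Flg, and falls, such as -3.31 points at Lhx1. In bulk DNA, cells that lost methylation mixed with cells that did not cannot be told apart from a partial loss in every cell.

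**Figure D2:**
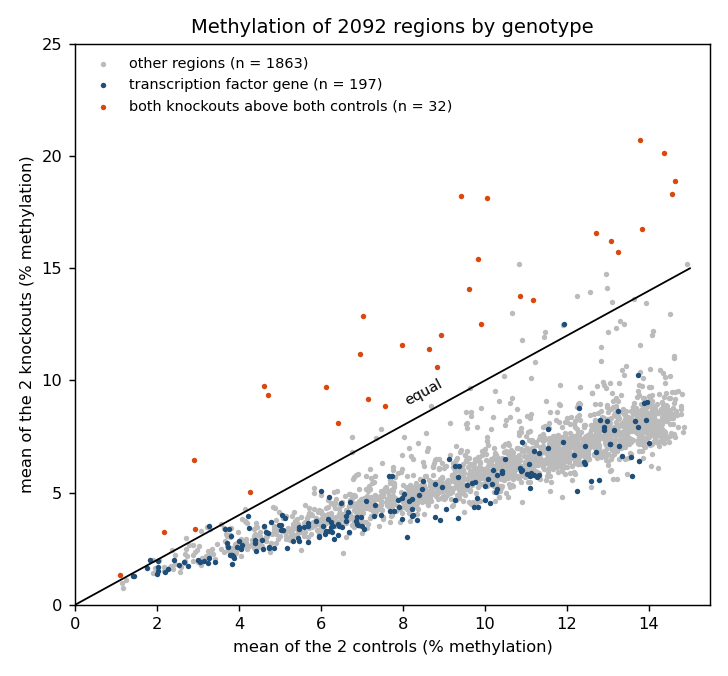
Mean of the 2 knockouts against the mean of the 2 controls (% methylation) for each of 2092 regions, coloured by whether the region overlaps a transcription factor gene or has both knockouts above both controls; the line marks equal values. Most regions lie below the line, and the 32 with both knockouts higher lie above it.

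The difference lay outside the islands. In the 2014 regions with 10 or more measured cytosines both inside and outside islands, the inside was at 1.20% and 1.21% in controls and 1.33% and 1.28% in knockouts. The outside was at 42.7% and 45.8% in controls and 24.6% and 24.8% in knockouts, a retention of 55.7%. The inside was not lower in either knockout. The gap between outside and inside was 41.5 and 44.6 points in controls against 23.2 and 23.5 points in knockouts, so it was 19.7 points smaller (exact two-sided permutation p = 0.33). Of all methylation summed over the cytosines of the regions in controls, 90.5% lay outside islands, where 27.0% of the cytosines were. By region, the island part differed by under 1 point in 1947 of 2032 (95.8%).

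Single cytosines showed the same split. Inside islands, 80.7% and 81.1% of the 554261 cytosines were at exactly 0 in controls and 81.5% and 80.6% in knockouts. Outside islands, 37.3% to 37.5% of the 205224 cytosines were at 0 in each of the 4 samples. Outside cytosines at 80% or more made up 19.9% and 25.1% in controls and 0.742% and 0.856% in knockouts. Those between 20% and 80% made up 19.7% and 15.4% in controls and 34.1% and 33.5% in knockouts. Those at 20% or less made up 60.3% and 59.5% in controls and 65.1% and 65.6% in knockouts. The class at exactly 0 thus kept its size, the class at 20% or less was larger, and the heavily methylated class was nearly empty in knockouts.

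**Figure D3:**
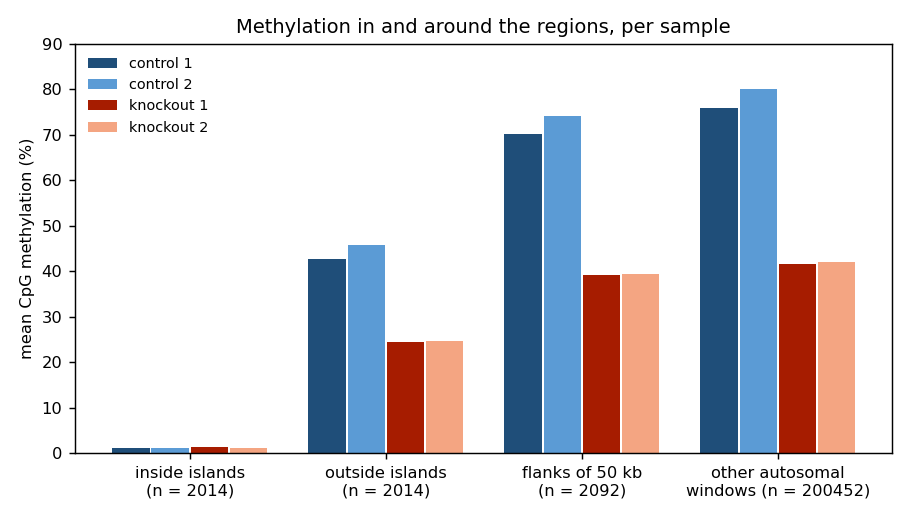
Mean CpG methylation (%) per sample inside and outside the islands of the regions, in the 50 kb on either side, and in the other autosomal windows; each bar is 1 sample and n counts regions or windows. The bars inside islands are near 1% in all 4 samples, and the knockouts are lower in the other 3 classes.

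The step between a region and its surroundings was smaller in the knockouts. The 50 kb on either side, other members left out, were at 70.2% and 74.2% in controls and 39.2% and 39.5% in knockouts, a retention of 54.5%. The flank minus the region was 60.6 and 63.9 points in controls against 33.0 and 33.4 points in knockouts, so it was 29.0 points smaller (exact two-sided permutation p = 0.33). As a share of its flank, the region level was 13.7% and 13.9% in controls and 15.8% and 15.4% in knockouts.

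The length of the low run depended on how it was measured. The unbroken run of 1-kb bins under 15% around the CpG-richest bin had a mean of 3.65 and 3.57 kb in controls and 3.98 and 4.01 kb in knockouts, with a median of 3 kb in each sample. In regions of 20 kb or longer it was 6.04 and 5.98 kb in controls and 7.89 and 7.38 kb in knockouts. Measured instead against 50% of each sample's own flank level, the run was 4.40 and 4.32 kb in controls and 4.32 kb in both knockouts. These runs were longer in the knockouts only against the fixed threshold; against the flank the groups overlapped in regions of 20 kb or longer, at 8.40 and 8.62 kb in controls and 8.84 and 8.21 kb in knockouts.

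Limma called 2088 of the 2216 member windows lower in the knockouts at an adjusted p under 0.05 (94.2%), against 99.8% of all 203096 windows tested, and 43 higher (1.94%), against 0.0364%. With each window's own spread in place of a shared one, 15 were called higher. In 2097 member windows both knockouts were below both controls (background 99.8%) and in 41 both were above (background 0.035%). No member window differed by 10 points or more in either direction with that adjusted p, against 96.8% lower and 0.000492% higher in the background; the unadjusted p under 0.05 gave 2088 lower and 43 higher with no limit on size. Since the rule held the controls under 15%, a member could not be much lower, and nothing is read from these shares. Because nearly all windows were lower, the calls higher go against the direction of the great majority.

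The same rule applied to the knockouts gave 6184 windows, of which 2190 were members. These are 98.8% of the control list and 35.4% of the knockout list. The 3994 windows low only in knockouts had a median control level of 20.6%. At the knockout level that gives as many windows as the control list, 8.76%, 1974 windows were shared (89.1%). Just under the threshold lay windows such as that of Paqr4 and Kremen2, at 13.6% and 14.997% in controls and 8.60% and 8.10% in knockouts. Just over it lay that of Mboat7 and Tsen34, at 14.2% and 15.0004% in controls and 7.76% and 7.39% in knockouts.

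Genes for developmental transcription factors were common in the regions. Of 357 measured genes on 8 lists of such factors, 200 (56.0%) lay at a region, against 2384 of 19505 measured protein-coding genes (12.2%). By family the counts were 78 of 121 homeobox genes outside the Hox clusters, 7 of 9 Pax genes, 13 of 18 Sox genes, 22 of 41 Fox genes, 10 of 16 T-box genes, 22 of 43 Gata, Zic, Gli and Klf genes, 20 of 44 Pou and nuclear receptor genes and 28 of 65 basic helix-loop-helix genes. Such a gene lay in 49 of the 102 regions of 20 kb or longer (48.0%) and in 148 of the 1990 of 10 kb (7.44%). A longer region spans more sequence in which a gene can lie, and the part of length in these shares was not tested. By window, 10.4% of member windows overlapped such a gene, against 0.838% of other autosomal windows. The 197 regions with one averaged 7.31% and 8.03% in controls and 4.42% and 4.49% in knockouts. Both knockouts were below both controls in 190 of them, and both above in 0, beside 99.8% and 0.035% of all windows.

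Pax6, a regulator of eye and forebrain development, had a region of 30 kb (chr2:105660001-105690000) at 5.75% and 6.87% in controls and 2.76% and 3.11% in knockouts. Its islands were at 1.28% and 1.12% in controls and 1.04% and 1.16% in knockouts, while the rest stood at 7.99% and 9.74% against 3.61% and 4.09%. Sox2, a pluripotency and neural stem cell factor, had a region of 30 kb (chr3:34640001-34670000) at 9.57% and 10.7% in controls and 4.18% and 4.91% in knockouts. In both regions the knockouts lay below the controls without overlap, and the islands were near 1% in every sample.

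Zic5 and Zic2, zinc finger genes of the neural tube, shared a region of 40 kb (chr14:122450001-122490000) at 3.89% and 4.27% in controls and 2.64% and 2.72% in knockouts. It was lower in both knockouts. In that region, 3 of the 4 windows were called lower, and the window with the most CpGs, at 1.47% and 1.80% in controls, stood at 1.51% and 1.51% in knockouts.

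**Figure D4:**
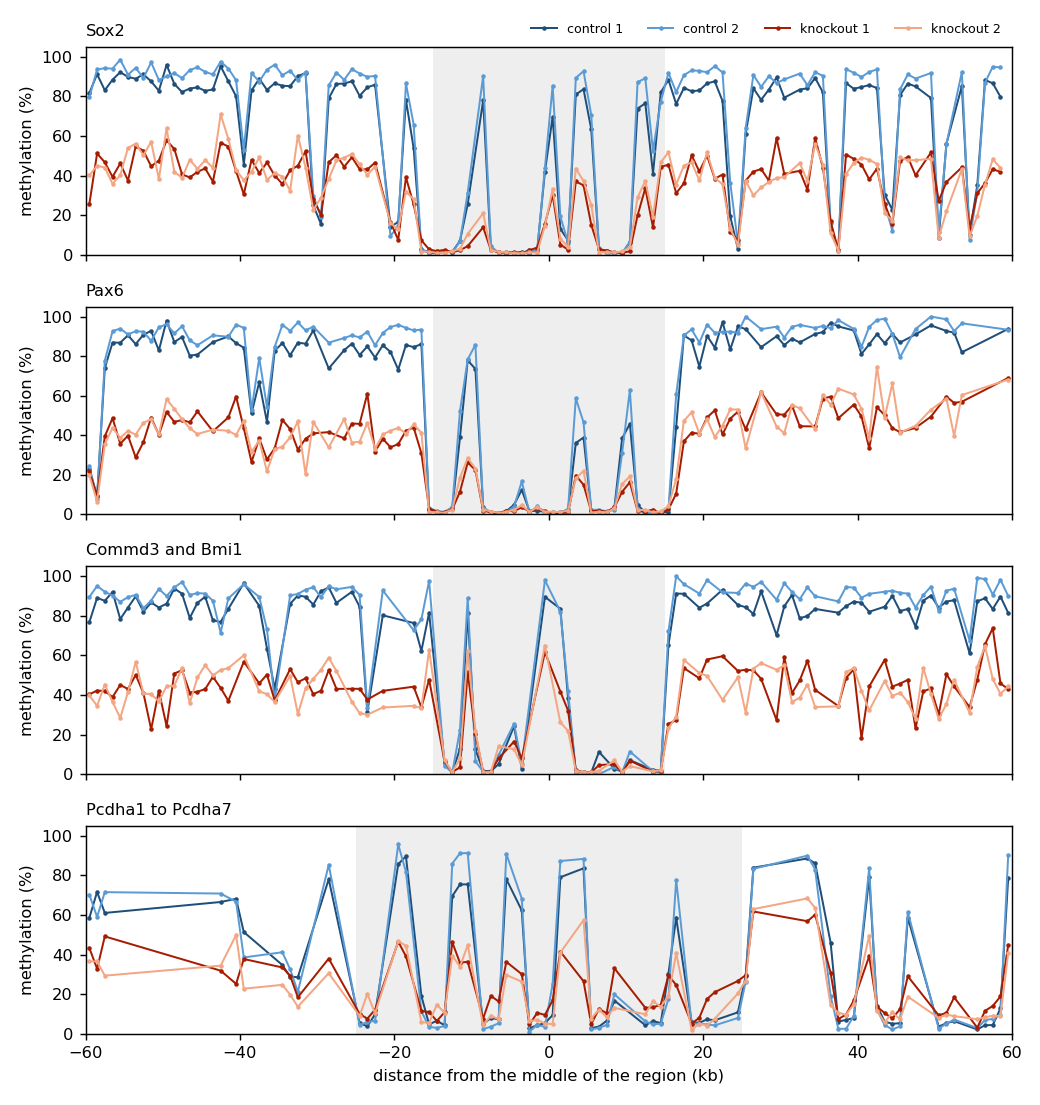
CpG methylation (%) in 1-kb bins with 3 or more measured cytosines, by distance (kb) from the middle of the region, for the regions of Sox2, Pax6, Commd3 with Bmi1, and Pcdha1 to Pcdha7; the grey band is the region and each line is 1 sample. Bins of low and high methylation alternate inside each band, and the high bins are lower in the knockouts; in the Pcdha band many low bins are higher in the knockouts, such as the bin 6.5 kb right of the middle, at 3.6% and 3.0% in controls against 12.6% and 12.2%.

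The 10 longest regions, with those of equal length ranked by CpGs measured, also included those of Tfap2a, Pax3 and Bmi1. Tfap2a, a neural crest factor (chr13:40720001-40750000), was at 5.76% and 6.25% in controls and 3.37% and 3.55% in knockouts. Pax3, a neural crest and muscle factor (chr1:78190001-78220000), was at 8.67% and 9.40% against 4.11% and 4.42%. Bmi1, a subunit of Polycomb repressive complex 1, shared its region with Commd3 (chr2:18670001-18700000), at 3.77% and 3.79% against 3.16% and 3.05%. Islands held 91.5% of the cytosines of the Bmi1 region, and the knockouts differed from the controls by -0.670 points. Of 36 Polycomb and trithorax genes, 12 lay at a region (33.3%, against 12.2% of protein-coding genes). Both knockouts were below both controls in all 12 regions, as in 99.8% of all windows.

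The regions with the largest negative differences held 2 of the genes for the neural microRNA miR-9 and 3 developmental factor genes. That of Mir9-3 (chr7:79500001-79510000) was at 13.6% and 14.8% in controls and 5.82% and 6.42% in knockouts, and that of Mir9-1 (chr3:88210001-88220000) at 13.4% and 13.5% against 4.94% and 6.70%. Pax7, a muscle stem cell factor (chr4:139820001-139830000), was at 12.7% and 14.4% against 5.28% and 6.23%. Tfap2b was at 12.7% and 13.0% against 4.36% and 5.65%, and Mef2c at 13.6% and 14.5% against 6.15% and 6.20%. The islands of the Pax7 region were at 1.12% and 1.63% in controls, and the rest of it at 38.9% and 43.4%.

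**Figure D5:**
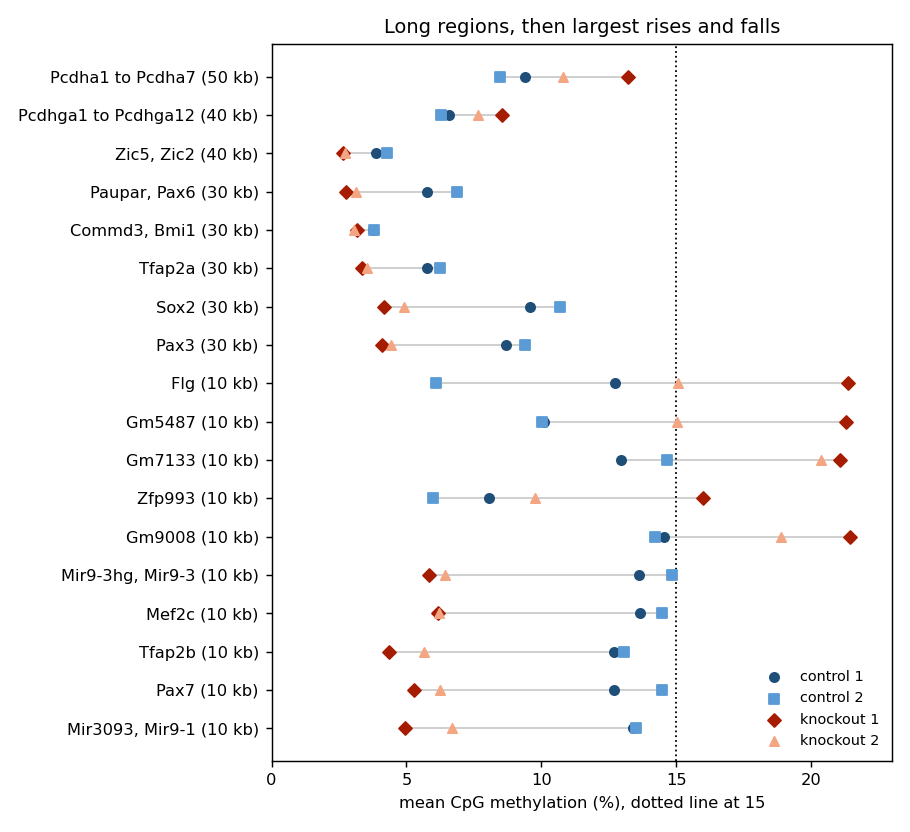
Mean CpG methylation (%) of 8 of the 10 longest regions (equal lengths ranked by CpGs measured) and of the 5 with the largest positive and the 5 with the largest negative difference between genotypes, 1 point per sample, with a dotted line at 15%. The 6 long regions shown outside the protocadherin clusters have both knockouts to the left of both controls.

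Shares were lower for most of the other lists than the 56.0% of the transcription factor lists together. The exception was the protocadherin and cadherin list, with 51 of 90 genes at a region, in 21 regions. Among all measured protein-coding genes the share was 12.2%. Of the lists below, the germline and spermatogonial ones fell under that share. The rest lay above it, the neurotransmitter receptor and ion channel list by the least. These differences were not tested. Ligands of the Wnt, Fgf, Bmp and hedgehog pathways and their antagonists lay at a region for 25 of 82 genes, among them Wnt1 (chr15:98790001-98810000), at 9.12% and 9.83% in controls and 4.46% and 4.83% in knockouts. Neurotransmitter receptor and ion channel genes did so for 32 of 207. Of 28 genes on a list meant for germline genes methylated in the soma, 3 lay at a region: Tdrd3, Stag3 and Sycp2. That list was drawn by gene symbol, and whether each member, such as Tdrd3, is such a gene was not checked. The Sycp2 region (chr2:178400001-178410000) was at 12.4% and 13.7% in controls and 15.7% and 16.7% in knockouts, and so was higher in both knockouts. Those of Tdrd3, at 8.88% and 9.84% against 5.86% and 4.85%, and Stag3, at 14.2% and 13.8% against 11.2% and 9.84%, were lower in both. Of 24 spermatogonial and pluripotency genes, 2 did, Nanos1 and Lin28b. Lin28b, which blocks maturation of let-7 microRNAs, was at 2.29% and 2.58% in controls and 2.01% and 1.66% in knockouts. Of 10 DNA methylation genes, Uhrf2, the paralog of Np95, and Tet2, which oxidises methylated cytosine, did. The Uhrf2 region (chr19:30030001-30040000) was at 10.7% and 11.4% against 7.06% and 7.63%, with its islands at 0.742% and 0.758% against 0.992% and 1.13%.

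In 32 regions both knockouts were above both controls, by 0.220 to 8.80 points with a median of 3.35. They had fewer CpGs than the other regions, with a median of 92 against 193, and 13 of them (40.6%) overlapped a pseudogene, against 3.69% of the others. Knockout 1 was above knockout 2 in 25 of the 32, and in 1005 of all 2092 regions. In 26 member windows at least 1 knockout was not under 15%, and in 24 of these knockout 1 was the higher; the part of that sample in these values was not tested. Low control values chose the members, so these regions are given as values, and no test is read from them.

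The largest of these was at Flg, the gene for the skin protein filaggrin (chr3:93280001-93290000), at 12.7% and 6.11% in controls and 21.4% and 15.1% in knockouts. The pseudogene Gm5487 (chr16:53980001-53990000) followed, at 10.08% and 10.02% against 21.3% and 15.02%. Gm7133 was at 12.9% and 14.6% against 21.1% and 20.4%, Gm9008 at 14.5% and 14.2% against 21.4% and 18.9%, and Zfp993 at 8.07% and 5.998% against 16.0% and 9.78%. The spread between samples of 1 genotype was large in several: the controls at Flg lay 6.62 points apart, the widest gap between controls of any region. Limma did not call the Flg window (adjusted p = 0.213). The Gm7133 and Zfp993 windows rest on 25 and 24 CpGs.

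Protocadherin genes, which encode cell adhesion proteins of neurons and sit in 3 clusters on chromosome 18, made up 6 of the 32. Pcdha1 to Pcdha7 span the longest region of all (chr18:36930001-36980000, 50 kb), at 9.40% and 8.45% in controls and 13.2% and 10.8% in knockouts. Its islands were at 5.53% and 3.89% against 11.1% and 9.49%, and the rest of it at 18.8% and 19.5% against 18.4% and 14.0%. Of its 5 windows, 3 were called higher and the others were not called, 1 of them at -0.941 points. The Pcdhga region (chr18:37730001-37770000, 40 kb) was at 6.56% and 6.27% against 8.54% and 7.65%. There, 3 of the 4 windows were called higher, and the remaining window, at -1.38 points, was not called. Of the 21 regions with protocadherin or cadherin genes, 13 had both knockouts below both controls and 6 had both above. The background shares over windows were 99.8% and 0.035%. Of the 10 regions with protocadherin genes on chromosome 18, 6 were higher in both knockouts. Others there were lower, such as chr18:37800001-37810000, at 7.67% and 8.99% in controls against 4.93% and 4.60%. Neighbouring protocadherin genes resemble each other in sequence, so reads may be shared between copies, and how the authors treated such reads is not given in the sources used here. Without chromosome 18, 32 member windows were called higher, against 43 with it.

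Regions of the imprinted genes Mest and Snrpn, which are methylated on 1 parental copy in somatic cells, were among the 32; imprinted genes were chosen after their values were seen. The region of Mest (chr6:30730001-30740000) was at 9.05% and 8.22% in controls and 11.7% and 11.1% in knockouts, and that of Snrpn (chr7:60000001-60010000) at 6.94% and 6.98% against 12.1% and 10.2%. Both regions were higher in both knockouts. The 2 Gnas regions overlapped between groups, at 11.4% and 10.4% in controls against 12.4% and 11.2% (chr2:174290001-174300000) and at 9.53% and 9.76% against 10.4% and 8.96% (chr2:174320001-174330000). The Peg10 and Sgce region (chr6:4740001-4750000) overlapped too, at 12.7% and 13.9% against 13.2% and 12.1%, and that of Commd1 (chr11:22970001-22980000) was lower, at 14.3% and 14.7% against 12.9% and 13.03%. Their islands taken alone were higher in both knockouts: in the second Gnas region at 2.64% and 2.42% against 6.44% and 4.97%, at Peg10 and Sgce at 1.63% and 2.10% against 9.24% and 6.03%, and at Commd1 at 2.17% and 2.23% against 7.15% and 6.51%. Islands stood 5 points or more higher, with both knockouts above both controls, in 20 regions, and that much lower in 1, out of 2032. Islands averaged near 1% in controls, so few could fall by 5 points, and nothing is read from that imbalance. With no limit on size, the island part was above both controls in both knockouts in 411 regions, below in 397 and neither in 1224.

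Promoters inside the regions were CpG-rich and almost free of methylation. Of 31396 autosomal promoters in the RefSeq table, 2458 lay in 1530 regions; they had a median of 25 CGs and 65.2% GC, against 7 and 53% for all. Their mean methylation was 1.58% and 1.64% in controls and 1.48% and 1.42% in knockouts, over 2359 with 5 or more measured cytosines. All autosomal promoters averaged 22.2% and 23.5% in controls and 12.4% and 12.5% in knockouts. Under 5% in every sample were 2254 promoters (95.5%). The promoter table has no entry on chromosome 18, so promoter counts leave out the 82 regions there, those of the clustered protocadherin genes among them.

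Of the 2359 promoters with 5 or more measured cytosines, both knockouts were above both controls by 5 points or more at 16. They were below by as much at 21. Some of these promoters have identical values in all samples, which leaves 14 and 20 distinct ones. Since 2254 of the 2359 were under 5% in every sample, few could fall by 5 points. The same counts over all autosomal promoters were not made, so nothing is read from them. Sycp2, a lateral element protein of the synaptonemal complex, was at 2.69% and 3.53% in controls and 12.9% and 14.9% in knockouts at its promoter, over 19 cytosines. At the Mest promoter the values were 6.46% and 2.64% against 9.05% and 14.99%. Hpse2, a heparanase-related gene, had the printed promoter with the fewest measured cytosines, 6, at 50.8% and 66.4% in controls and 11.8% and 5.62% in knockouts. Sycp2 and Mest were thus higher, and Hpse2 lower, in both knockouts.

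The letters of 3 short motifs were looked for in the 300 bases on both strands. An E2F-type site (GGCGGGAA) was in 4.64% of promoters inside the regions and in 2.17% of all autosomal promoters, and the E-box CACGTG in 9.36% and 7.14%. TATAAA was in 7.24% and 13.6%. Of the printed promoters, Olig2 held the E2F-type letters and TATAAA. The sets also differ in GC content, given above, and its part in the shares was not tested.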

How the data were processed

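The deposited table gives, per the file headers, the methylation of CpG cytosines in percent for 2 control and 2 knockout samples, with both strands listed; its name gives a minimum of 10 reads. Coordinates are mm10, per the submitters' processing notes; which program aligned the reads or called methylation is not given in the sources used here. A single row, which names no position, was left out.

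Levels are means over cytosines with a value in all 4 samples. Windows were compared with limma 3.58.1 in R 4.3.3 (moderated, trend and robust) on log2((m + 0.01)/(1 - m + 0.01)) of the mean fraction m, with Benjamini-Hochberg adjustment over 203096 windows and a call at 0.05; the test was checked on simulated data. Means over regions were compared by exact permutation. Python 3.11.15, NumPy 2.4.6, pandas 2.3.3 and Matplotlib 3.10.9 were used. Gene positions and promoters came from RefSeq tables of GRCm38.p6, which are not complete. The members, the 15 gene lists and the tests were chosen with earlier results of these data known. Named regions are the 10 longest (ties by CpGs measured), the 5 with the largest difference in each direction, those nearest the threshold, and up to 3 per gene list by CpGs measured; others are named as chosen after their values were seen, and the 125 wide regions are illustrated by examples. Some named regions are not reported here. Replicates are separate samples per the labels, but no source ties them to separate animals; the p-values thus reflect only how far these samples differ, which may be technical.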

Additional observations from a re-analysis of the deposited data

How the results depend on the processing

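No difference changed sign under any alternative, but for many this was fixed in advance. A larger offset, untransformed fractions, each window's own spread and the replicate block leave a region's difference in points as it was. Leaving out a sample cannot change a sign where both knockouts lie on the same side of both controls. Calls of single regions were less stable. Of 54 named regions, 47 had every window called. With each window's own spread, 13 of the 54 lost that. With fractions left untransformed 11 lost it and 1 gained it. The counts of member windows followed the threshold: under 10% there were 851 called lower and 25 higher, with 2938 windows under it in both knockouts, and under 20% there were 3674 lower and 65 higher, with 9865. With each window's own spread, 15 members were called higher in place of 43, and 1857 lower. Leaving out each replicate in turn gave 2032 to 2085 lower and 29 to 53 higher; the lone sample of a group is then assumed to vary like the others. It gave mean differences over regions of -4.14 to -3.49, flank minus region differences of -30.7 to -27.4 and outside minus inside differences of -21.2 to -18.2 points. With a threshold of 10 the mean difference was -2.37 points, and over the 125 wide regions, an alternative chosen after seeing the data, -0.627 points.

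The replicate block, which pairs samples by number, gave 2094 members lower and 45 higher. Its mean difference of -3.81 points equals the main one by construction. The labels give no reason to pair samples by number. Deviations of same-numbered samples correlated at 0.0713 over all windows and 0.224 over member windows. For 99.7% of windows limma set no finite prior degrees of freedom, so its p-values rest on a spread shared between windows. Reads per cytosine are unknown, which limits each value by an amount that could not be set.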
